A study of Mus musculus with 6 samples.

Results

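Spic-negative nonclassical monocytes were selected on their own transcripts from single-cell libraries of mouse lung leukocytes. A kept barcode was a member when at least 3 of the 9 genes Ace, Treml4, Cd300e, Adgre4, Fcgr4, Eno3, Smpdl3b, Vegfc and Slc12a2 were detected and Spic had 0 unique molecular identifiers (UMIs, counted transcript molecules). It could hold at most 1 UMI over the lymphoid, alveolar macrophage and neutrophil genes Cd79a, Cd3e, Ncr1, Plet1 and Retnlg and at most 2 UMIs over C1qa, C1qb and C1qc. Of 71634 kept barcodes 15338 were members, 2425 in normal lung and 12913 in AML lung. The libraries came from CD45-positive cells, the leukocytes, of perfused and enzyme-digested lungs, isolated with magnetic beads. Lung invaded by acute myeloid leukaemia (AML), a blood cancer of immature myeloid cells, gave 3 libraries and normal lung another 3, in a series on the immune microenvironment that leukaemia meets in a tissue. Labels give neither the strain, age and leukaemia model nor which cells are leukaemic, and nothing says that the replicates are different animals: a p-value here measures the spread among libraries alone, and that spread may be technical. A member in AML lung may therefore be a host or a leukaemic cell, and the files used here do not tell them apart.

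Nonclassical monocytes arise from classical Ly6C-high monocytes under the nuclear receptor Nr4a1 and live largely inside blood vessels, where they crawl along the endothelium by the integrin LFA-1. They clear particles and dying endothelial cells, bind antibody-coated targets through the Fc receptor Fcgr4, and are abundant in the lung capillary bed. Spic, left out by the rule, encodes a transcription factor of haem-recycling macrophages.

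The libraries differed in depth. Member medians were 11149.5, 7417.5 and 4729 UMIs per cell for normal replicates 1, 2 and 3, compared with 10029, 4964 and 1320 for AML replicates 1, 2 and 3, and the summed member counts ran from 5936279 to 27015878 UMIs. AML lung replicate 3 was the shallowest and stood apart in markers of other cells. The 7 neutrophil markers summed to 1979 CPM (counts scaled to a common library total) in its members and to 228 to 337 CPM in the other 5 libraries. Its 5 NK markers summed to 169.7 CPM against at most 29.4 CPM elsewhere, and its 5 B cell markers to 194 against at most 53.5 CPM. Its 9 interstitial macrophage markers summed to 179.6 against at most 34.3 CPM. Of these Mrc1 alone stood at 142 CPM, Lyve1 at 15.3 CPM and Folr2 at 0 CPM. The 9 alveolar macrophage markers summed to 984 CPM, inside the range elsewhere of 508 to 1019 CPM. Among them Atp6v0d2 stood at 70.8 against at most 5.91 CPM elsewhere, while Ear2, at 242 CPM, was lowest in this library. Endothelial markers summed to 108, 148 and 144 CPM in the normal libraries and to 31.1, 24.8 and 115 CPM in the AML libraries. The 5 erythroid markers reached 826 CPM in normal lung replicate 3 and 96.5 CPM in AML lung replicate 3, with at most 33.2 CPM elsewhere. None of the markers listed for these types was at 0 over the 6 libraries, and their part in the results was not tested. Scrublet marked 0.507% to 2.42% of members as doublets, which were kept. Any pair of libraries shared at most 118 kept barcodes and at most 7 member barcodes.

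The genes that chose the cells are a description only. Fcgr4 stood at 216, 235 and 215 CPM in the normal libraries and at 666, 533 and 825 CPM in the AML libraries. Cd300e, an activating receptor of the CD300 family, stood at 163, 159 and 147 CPM against 403, 253 and 323 CPM. For both genes every AML library lay above every normal library. Ace, the angiotensin-converting enzyme, stood at 510, 525 and 562 CPM in normal lung and at 502, 418 and 391 CPM in AML lung.

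Outside the rule, the leading genes of the members over all other kept barcodes, by the median log2 ratio of CPM over the 6 libraries, included Ly6i (2.80), Tiam2 (2.63), Tmem26 (2.58), Apoc2 (2.46), Ceacam1 (2.40), Hes1 (2.33) and S1pr5 (2.25), of which Hes1 is a Notch target and S1pr5 a sphingosine receptor. The leading genes hold no marker of another lung cell type fixed here. Cells just inside the rule still carried classical monocyte transcripts. Members with exactly 3 of the 9 genes had 611, 554 and 318 CPM of Ly6c2 in normal lung and 774, 690 and 162 CPM in AML lung, and cells with 2 of the 9 had 564, 416 and 256 CPM and 606, 824 and 224 CPM. Members with 6 or more of the 9 genes made up 65.5%, 57.0% and 42.7% of members in normal lung and 88.8%, 62.4% and 11.6% in AML lung, where the shallow replicate 3 is the low one. The weight of members at the edge of the rule thus differed between libraries.

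Members held 13.5%, 15.7% and 10.98% of the kept barcodes in the normal libraries (replicates 1, 2 and 3) and 34.8%, 36.04% and 18.9% in the AML libraries. All 3 AML libraries lay above all 3 normal libraries, and replicate 3 was the lowest of each group. Mean shares were 13.4% ± 2.38 for the normal and 29.9% ± 9.56 for the AML libraries (SD, n = 3), a difference of 16.5 percentage points with an exact two-sided permutation p = 0.1, the smallest that 20 arrangements allow. Because a deeper cell shows more of the 9 genes, every kept barcode was also thinned to 1000 UMIs before the rule was applied, with shallower ones left out. Thinning also removes UMIs of Spic and of the excluding genes, so that cells with Spic can enter: AML lung replicate 1, with 819 Spic-positive cells, had 1637 members after thinning and 1579 before. The share was then 6.77%, 7.25% and 6.72% in normal lung and 36.2%, 28.8% and 15.6% in AML lung. When 4 of the 9 genes were required, AML lung replicate 3 fell to 10.5%, inside the range of the normal libraries at 11.5%, 13.3% and 8.54% (exact permutation p = 0.3). Of the nonclassical and classical monocytes together, members made up 74.7%, 78.5% and 73.9% in normal lung and 96.4%, 89.5% and 85.2% in AML lung. Classical monocytes, defined below, also had to show several detected genes, so this share depends on depth as well. Shares sum to a whole within a library and depend on the CD45 isolation, so they do not give cell numbers per lung.

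**Figure D1:**
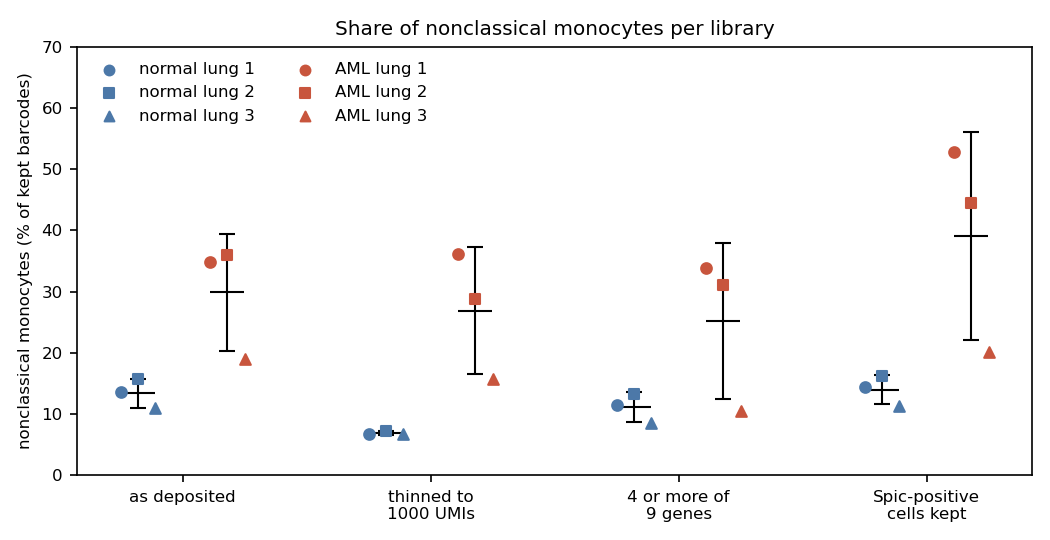
Share of nonclassical monocytes among kept barcodes (y axis, percent) in each library for 4 ways of counting; points are libraries, bars are means and SD of 3 libraries. The AML libraries lie above the normal ones except where 4 of the 9 genes are required, where AML lung replicate 3 (10.5%) falls among the normal libraries.

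Gene expression in AML lung was compared with normal lung on UMI counts summed over the members of each library. Il10, Mmp14, Hpgds, Ikbke, Pecam1, Fpr2 and the ferritin gene Fth1 rose, while Lyz2, Dusp6, Msr1 and Mef2c fell. Of 12185 genes tested outside the rule, 84 were higher and 64 lower in AML lung at an edgeR quasi-likelihood adjusted p below 0.05, that is 0.689% and 0.525%, together 148 genes or 1.21%. The groups did not overlap in CPM for 25.5% of all genes tested, and the median log2 change of all genes was 0.02. Each of the normal libraries was needed for these calls. Without normal lung replicate 1, 2 or 3 edgeR called 0 genes, with 1413, 1633 and 1575 genes at an unadjusted p under 0.05, and DESeq2 with all libraries called 763. Without AML lung replicate 1 or 2 the count was 39 and 37, and without AML lung replicate 3 it was 2089. All 148 genes kept their direction in each of these 6 fits, and all 148 were called without AML lung replicate 3. These fits reuse libraries on which the 148 genes were chosen, so a kept direction is no separate evidence.

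Il10, on chromosome 1 (131019845 to 131024974, GRCm38), encodes interleukin 10, the cytokine that restrains macrophage and dendritic cell activation. It had 4, 1 and 5 UMIs in the members of the normal libraries, replicates 1, 2 and 3, and 1870, 1148 and 295 UMIs in those of the AML libraries. On the CPM scale these were 0.662, 0.139 and 0.823 against 115, 43.2 and 26.7. The groups lay far apart, and within AML lung the level differed over 4-fold with replicate 3 the lowest. The log2 change was 6.86 (SE 0.81, edgeR adjusted p = 0.0266), and pooled CPM differed 116-fold, with a 95% exact interval of 63.2 to 243 that covers counting error only. No Il10 UMI was captured in most members, and shallow cells miss a transcript more easily, so members without one may still express Il10. In AML lung 21.2%, 8.32% and 2.99% of members had an Il10 UMI, with 5.60, 2.95 and 1.48 UMIs per such cell on average. In normal lung 0.418%, 0.115% and 0.278% of members had one. With each cell thinned to 1000 UMIs the shares with an Il10 UMI were 7.61%, 2.98% and 2.15% in AML lung and 0 of 478, 862 and 1024 members in normal lung, which allows shares of up to 0.628%, 0.348% and 0.293%. B cells of the same libraries, which hold little Il10, had 0% to 0.385% at that depth.

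Mmp14 and Hpgds also rose from low levels. Mmp14, a membrane-anchored metalloproteinase that cuts collagen and activates other metalloproteinases, stood at 3.64, 3.33 and 2.14 CPM in normal lung and 58.1, 52.4 and 18.7 CPM in AML lung (log2 change 3.82, SE 0.48, edgeR adjusted p = 0.0282). Hpgds, the haematopoietic prostaglandin D synthase, stood at 1.99, 3.61 and 4.77 CPM against 33.9, 70.5 and 25.3 CPM (3.64, SE 0.49, edgeR adjusted p = 0.0312). Both were low in every normal library, and AML lung replicate 3 was the lowest AML library for each. At 1000 UMIs per cell, 0.209%, 0.464% and 0.488% of normal and 6.47%, 4.95% and 1.69% of AML members had an Mmp14 UMI.

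Pecam1 and Ikbke were the largest increases among called genes whose average log2 CPM reached 5. Pecam1 (chromosome 11, 106654217 to 106750628, GRCm38) encodes CD31, the homophilic adhesion molecule at endothelial junctions that leukocytes engage when they cross a vessel wall. Its level was 211, 209 and 281 CPM in normal lung and 1197, 984 and 912 CPM in AML lung. The AML libraries were close to one another and none came near the normal range (log2 change 2.14, SE 0.17, edgeR adjusted p = 0.0165). At 1000 UMIs per cell a Pecam1 UMI was found in 15.1%, 14.4% and 20.7% of normal and 58.1%, 53.0% and 51.4% of AML members. Endothelial cells express Pecam1 too, and none of their 5 markers was called in these cells; the marker sums given above lay below the normal range in AML lung replicates 1 and 2 and inside it in replicate 3. Their part in the Pecam1 result was not tested. Classical monocytes had a Pecam1 UMI in 0.617% to 9.06% of cells at the same depth, and B cells, which express the gene, in 33.0% to 49.1%.

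Ikbke (chromosome 1, 131254343 to 131279606, GRCm38) encodes a kinase related to TBK1 that is induced by NF-kB and phosphorylates interferon regulatory factors. It stood at 16.1, 12.5 and 9.54 CPM in normal lung and 158, 97.4 and 70.1 CPM in AML lung, again without overlap (log2 change 3.10, SE 0.34, edgeR adjusted p = 0.0266). With cells thinned, 0.837%, 0.928% and 0.684% of normal and 15.1%, 8.79% and 6.85% of AML members had an Ikbke UMI, against 0.353% to 1.55% of B cells.

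**Figure D2:**
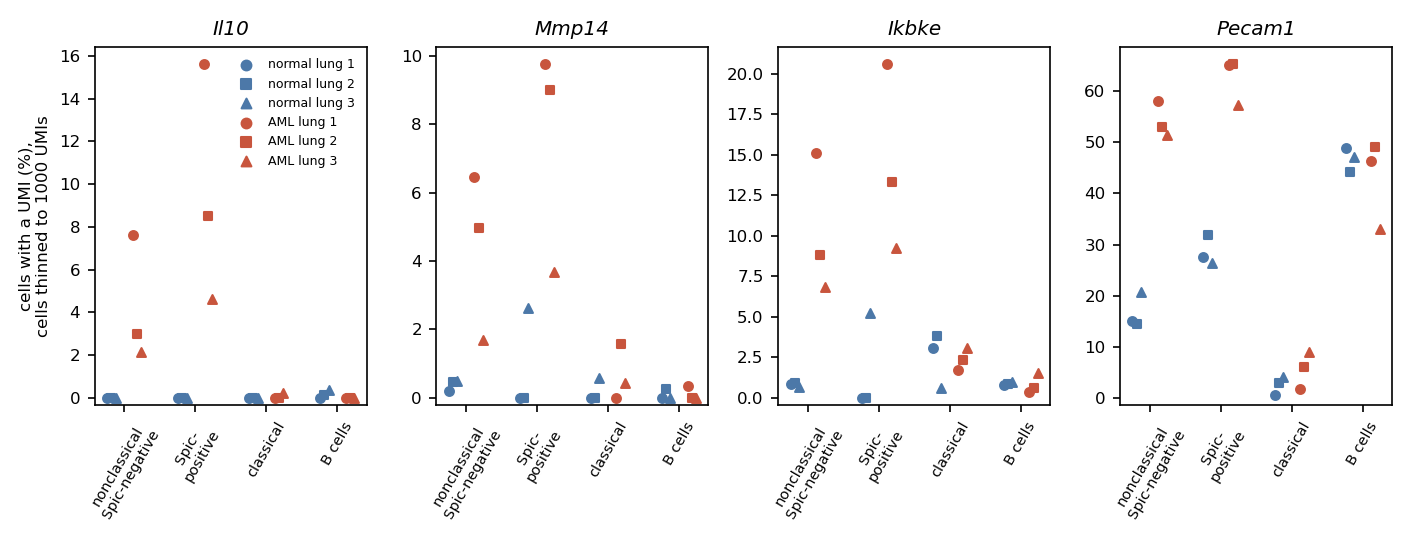
Percent of cells with a UMI of Il10, Mmp14, Ikbke and Pecam1 (y axes, scaled per gene), each cell thinned to 1000 UMIs, in 4 cell classes; points are libraries. Spic-negative nonclassical monocytes of AML lung lie above those of normal lung for all 4 genes, while Il10 is at or below 0.385% in classical monocytes and B cells; normal lung holds only 22 to 38 Spic-positive cells per library.

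The other large increases fell into several roles. Fpr2 and Fpr1 encode receptors for formylated bacterial and mitochondrial peptides. Fpr2 stood at 20.02, 15.95 and 18.6 CPM in normal lung and 75.7, 64.2 and 59.96 CPM in AML lung (log2 change 1.87, SE 0.14), and Fpr1 at 2.65, 4.58 and 3.29 against 40.1, 18.1 and 26.4 CPM (2.99, SE 0.36). They were the 2 called genes among 16 measured chemokine and sphingosine receptors, whose median log2 change was 0.10. Calls made up 1.21% of all genes tested. Siglece, an inhibitory receptor for sialic acid, stood at 8.93, 5.41 and 6.75 against 88.2, 31.6 and 46.1 CPM (2.98, SE 0.42), highest in AML lung replicate 1. F10, which encodes coagulation factor X, moved from 81.1, 84.3 and 90.0 to 263, 279 and 209 CPM (1.56, SE 0.13), with replicates close together in both groups. Acp5, the tartrate-resistant acid phosphatase of macrophages and osteoclasts, changed by 1.91 (SE 0.18), Fmnl2, a formin that builds actin filaments at protrusions, by 1.76 (SE 0.17), and Nr1h3, the oxysterol receptor LXR alpha, by 1.65 (SE 0.26). Rnaseh2b, a subunit of ribonuclease H2, and Mllt6, a chromatin reader, changed by 1.71 (SE 0.27) and 1.61 (SE 0.20). For these genes the edgeR adjusted p lay between 0.0165 and 0.0403, and no normal library reached the level of any AML library.

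**Figure D3:**
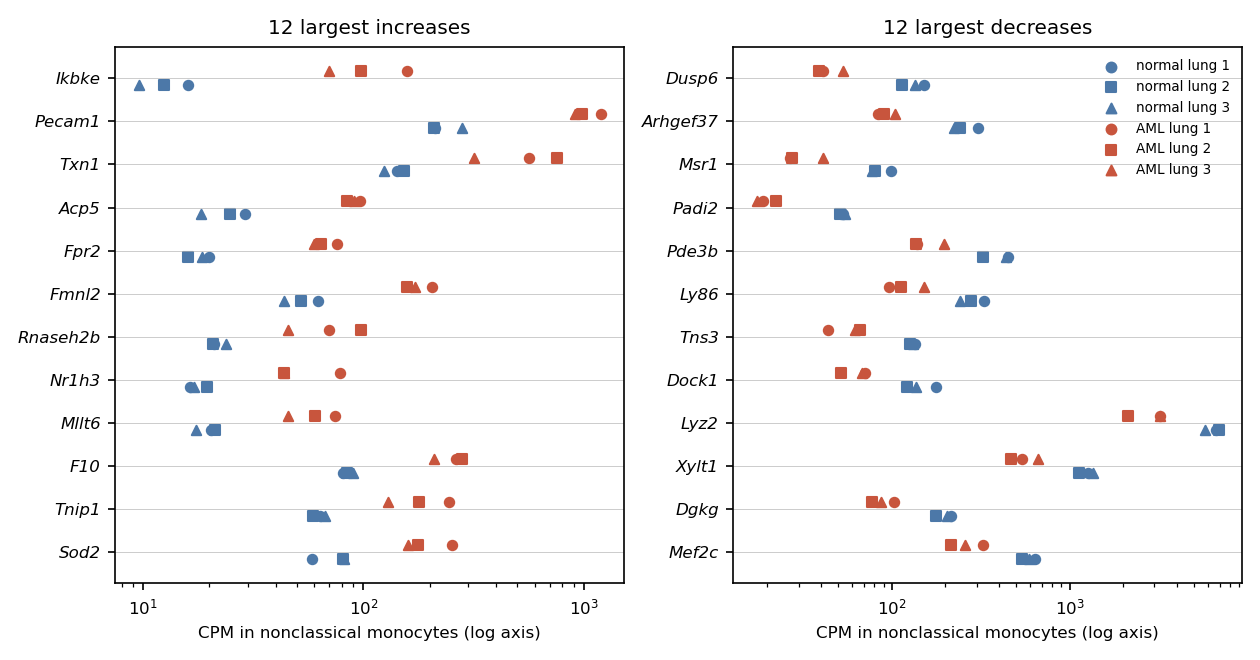
CPM per library (x axes, logarithmic) of the 12 largest increases and 12 largest decreases among called genes whose average log2 CPM reached 5. Circles, squares and triangles are replicates 1, 2 and 3; for each of the 24 genes the AML and normal libraries form separate ranges, which the naming rule required.

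Of all genes tested 0.689% were called higher, and the median log2 change of all genes was 0.02. Among inflammatory cytokines and NF-kB targets 4 of 26 measured genes were called, all higher, with a list median of 0.24. Il1b, the pyrogenic cytokine, was the steadiest of them, at 335, 346 and 341 CPM in normal lung and 733, 698 and 739 CPM in AML lung (log2 change 1.09, SE 0.09, edgeR adjusted p = 0.0165). Tnip1, a brake on NF-kB signalling that binds A20, stood at 63.5, 59.0 and 67.3 against 243, 179 and 129 CPM (1.54, SE 0.22). Sod2, the mitochondrial superoxide dismutase, stood at 58.4, 80.5 and 81.6 against 252, 177 and 160.1 CPM (1.42, SE 0.21), and Bcl3, an atypical IkB protein, at 39.1, 29.1 and 27.0 against 80.6, 67.0 and 60.6 CPM (1.13, SE 0.18). The subunit and inhibitor genes Nfkb1 and Nfkbia did not pass the test, with log2 changes of 0.11 (SE 0.11) and 0.12 (SE 0.33), and Rela was at -0.09 (SE 0.11). Il1rn, the interleukin 1 receptor antagonist, was called with Il10 among 21 measured genes of checkpoint and immunosuppression, at 10.6, 7.77 and 6.42 against 25.3, 18.8 and 28.9 CPM (1.56, SE 0.25). Cd274, the gene of PD-L1, stood at 70.8, 78.2 and 124 CPM in normal lung and 317, 421 and 198 CPM in AML lung and missed the threshold (1.78, SE 0.32, edgeR adjusted p = 0.0569).

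Promoter windows were read for the called genes, since NF-kB targets were among those that rose together. The kappa B consensus was searched on both strands in the 250 bases before each RefSeq gene start (GRCm38.p6). Windows were found for 69 of the 84 higher genes, and 4 of them (5.80%) held a match, against 7.01% of 27025 promoters in all. Of the lower genes 44 had a window and 2 (4.55%) a match, both shares below that of all promoters. The interferon response element, searched on both strands in the same windows, was in 3 of the 69 (4.35%), 1 of the 44 (2.27%) and 3.04% of all promoters. Tnip1 and Sod2 are shown because both were NF-kB targets called higher with a match; capitals mark the bases covered by matches, which overlap where they lie on both strands. Their windows are chr11:54962941-54963190 on the minus strand and chr17:13007589-13007838 on the plus strand, written 5′ to 3′ towards the gene.
Tnip1: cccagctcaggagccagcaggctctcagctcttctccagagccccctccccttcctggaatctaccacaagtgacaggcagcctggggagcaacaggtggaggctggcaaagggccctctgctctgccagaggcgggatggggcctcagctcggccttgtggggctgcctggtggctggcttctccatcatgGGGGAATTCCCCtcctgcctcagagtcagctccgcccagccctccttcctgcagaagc
Sod2: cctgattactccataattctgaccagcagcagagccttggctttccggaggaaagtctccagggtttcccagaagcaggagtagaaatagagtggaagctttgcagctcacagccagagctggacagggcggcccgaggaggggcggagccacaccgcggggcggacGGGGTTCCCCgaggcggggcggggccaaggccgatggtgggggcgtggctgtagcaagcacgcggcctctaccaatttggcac
A match describes letters only and is no measured binding site.

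Iron, haem and redox genes had the highest list median, 0.66, beside 0.02 for all genes tested. Of 18 measured genes 4 were called higher and none lower, beside 0.689% and 0.525% of all genes, and 17 were above 0. Fth1, the ferritin heavy chain that stores iron, stood at 1347, 1839 and 1605 CPM in normal lung and 4109, 3880 and 3735 CPM in AML lung (log2 change 1.29, SE 0.15, edgeR adjusted p = 0.0266). Slc7a11, the cystine importer that feeds glutathione, stood at 40.4, 42.7 and 40.0 against 80.4, 122 and 124 CPM (1.41, SE 0.18), and Cp, the ferroxidase ceruloplasmin, at 6.95, 5.41 and 6.09 against 36.8, 28.3 and 19.1 CPM (2.19, SE 0.27). In each of these 3 genes the normal libraries were tightly grouped below the AML libraries. Txnrd1, thioredoxin reductase, changed by 0.91 (SE 0.12) and its substrate thioredoxin, Txn1, by 1.97 (SE 0.30), from 143, 152 and 124 to 565, 755 and 318 CPM. Ftl1, the ferritin light chain, stood at 1871, 2440 and 2053 against 4393, 4638 and 3121 CPM and did not pass (0.93, SE 0.19, edgeR adjusted p = 0.0732). Hmox1, haem oxygenase, was at 0.33 (SE 0.20, edgeR adjusted p = 0.415), with 44.2, 76.0 and 52.0 CPM against 69.8, 78.5 and 68.1 CPM, so its groups overlapped. The rule leaves out Spic-positive cells, 89 beside 2425 members in normal lung and 2326 beside 12913 members in AML lung. Those of AML lung stood at 241, 597 and 197 CPM of Hmox1. The part of this selection in the Hmox1 result was not tested.

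Lyz2, the lysozyme gene that is among the most abundant transcripts of lung myeloid cells, fell from 6677, 6911 and 5795 CPM to 3209, 2120 and 3231 CPM (log2 change -1.18, SE 0.20, edgeR adjusted p = 0.0444). Msr1, the class A scavenger receptor, stood at 99.4, 80.7 and 77.2 against 26.7, 27.6 and 40.9 CPM (-1.44, SE 0.20), whereas Marco, its relative, rose from 1.32, 2.77 and 1.65 to 12.9, 37.1 and 17.7 CPM (3.54, SE 0.50). The 2 scavenger receptors thus moved in opposite directions, and Marco is also a listed alveolar macrophage marker. Dusp6, a phosphatase that switches off ERK and is induced by growth factor signals, stood at 152, 114 and 135 against 41.1, 39.2 and 53.3 CPM (-1.59, SE 0.16, edgeR adjusted p = 0.0229), the largest decrease among called genes whose average log2 CPM reached 5. Mef2c, a myeloid transcription factor, stood at 642, 540.1 and 588 against 324, 215 and 258 CPM (-1.15, SE 0.17).

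The other named decreases were of varied function. Pde3b, which breaks down cyclic AMP, changed by -1.36 (SE 0.19), Dgkg, a diacylglycerol kinase, by -1.17 (SE 0.14), Padi2, which citrullinates proteins, by -1.44 (SE 0.13) and Ly86, the MD-1 partner of RP105, by -1.24 (SE 0.19). Arhgef37, Tns3, Dock1 and Xylt1 changed by -1.47, -1.19, -1.19 and -1.17. Nrp1, the semaphorin and VEGF co-receptor, and Thbd, the anticoagulant thrombomodulin, were lower by log2 changes of -0.99 (SE 0.14) and -0.86 (SE 0.14) within a list of matrix, angiogenic and coagulation genes where Mmp14 and F10 were higher, so that 2 of 29 rose and 2 fell. Over all genes tested 0.689% were called higher and 0.525% lower. The TNF receptor Tnfrsf1a changed by -0.64 (SE 0.10), while the anti-apoptotic Bcl2a1b and Bcl2a1d changed by 1.21 (SE 0.20) and 1.19 (SE 0.20). The Bcl2a1 genes are near-identical copies whose reads the counting may not tell apart.

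Transcription factors of monocyte fate moved both ways. Of 29 measured, 2 were higher, Nr1h3 and Pparg, and Mef2c was among those lower, with a median of -0.11. Over all genes tested 0.689% were higher and 0.525% lower at the same threshold. Pparg, the lipid-sensing nuclear receptor, stood at 535, 625 and 670 against 1192, 1041 and 1217 CPM (log2 change 0.91, SE 0.13), with no overlap between the groups. Nr4a1, on which the lineage depends, stood at 681, 799 and 895 against 885, 766 and 628 CPM with overlapping groups (-0.06, SE 0.16, edgeR adjusted p = 0.872). The identity genes outside the rule had 1 of 21 called, Lyz2, and a median of -0.09. Cx3cr1, the fractalkine receptor, was at -0.28 (SE 0.36), the LFA-1 subunit Itgal at -0.11 (SE 0.17), Spn, the sialophorin CD43, at 0.14 (SE 0.19) and Csf1r at 0.01 (SE 0.17), none past the threshold.

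Called genes, 1.21% of all genes tested, were present in 15 of the 25 lists, and 10 lists held none. Oxidative phosphorylation genes had small positive changes throughout: 44 of 45 were above 0, the median was 0.28 and the largest 0.68, and 14 had non-overlapping groups, all higher, which is 14 of 45 beside 25.5% of all genes in either direction. Unfolded protein response genes leaned the other way, with 2 of 23 above 0, a median of -0.39 and 8 non-overlapping, all lower; Hspa5, the chaperone BiP, stood at 368, 380 and 324 CPM in normal lung and 205, 162 and 368 CPM in AML lung, with replicate 3 inside the normal range. MHC class II genes had a median of -0.51 over 13, and H2-Aa stood at 246, 476 and 534 against 114, 246 and 323 CPM with overlapping groups (-0.88, SE 0.42, edgeR adjusted p = 0.314). Type I interferon-stimulated genes and interferon gamma-induced genes had medians of -0.16 over 37 and -0.13 over 27, both with 0 called, while Ikbke was the 1 call among 17 interferon kinases and sensors. MHC class I (20 genes, median 0.15), glycolysis and hypoxia (25, 0.12), immediate early and heat shock (27, -0.45), cell cycle (22, 0.25) and chemokine ligands (12, 0.60) also had none.

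The remaining lists held 1 to 3 calls each, beside 1.21% of all genes tested. The 21 survival and growth factor receptor genes had 2 higher and 1 lower (median 0.01), the 21 adhesion genes 1 higher, Pecam1 (-0.06), and the 30 inhibitory and paired receptors 2 higher (0.31), Siglece and Clec4e, the glycolipid receptor Mincle. The 21 Fc receptor and phagocytosis genes had 1 higher and 1 lower, Marco and Msr1 (-0.02), and the 25 lipid uptake and efflux genes 2 higher, Nr1h3 and Pparg, and 1 lower, Msr1 (-0.15). Hpgds was the 1 call among 18 prostaglandin and leukotriene genes (-0.21), and Ctsd, the aspartic protease cathepsin D, the 1 call among 26 lysosomal genes (0.28), at 112, 104 and 86.1 against 185, 234 and 303 CPM. Apoe, which carries lipids out of macrophages, stood at 1793, 1268 and 1074 against 337, 272 and 613 CPM and missed the threshold (log2 change -1.76, SE 0.34, edgeR adjusted p = 0.0642).

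**Figure D4:**
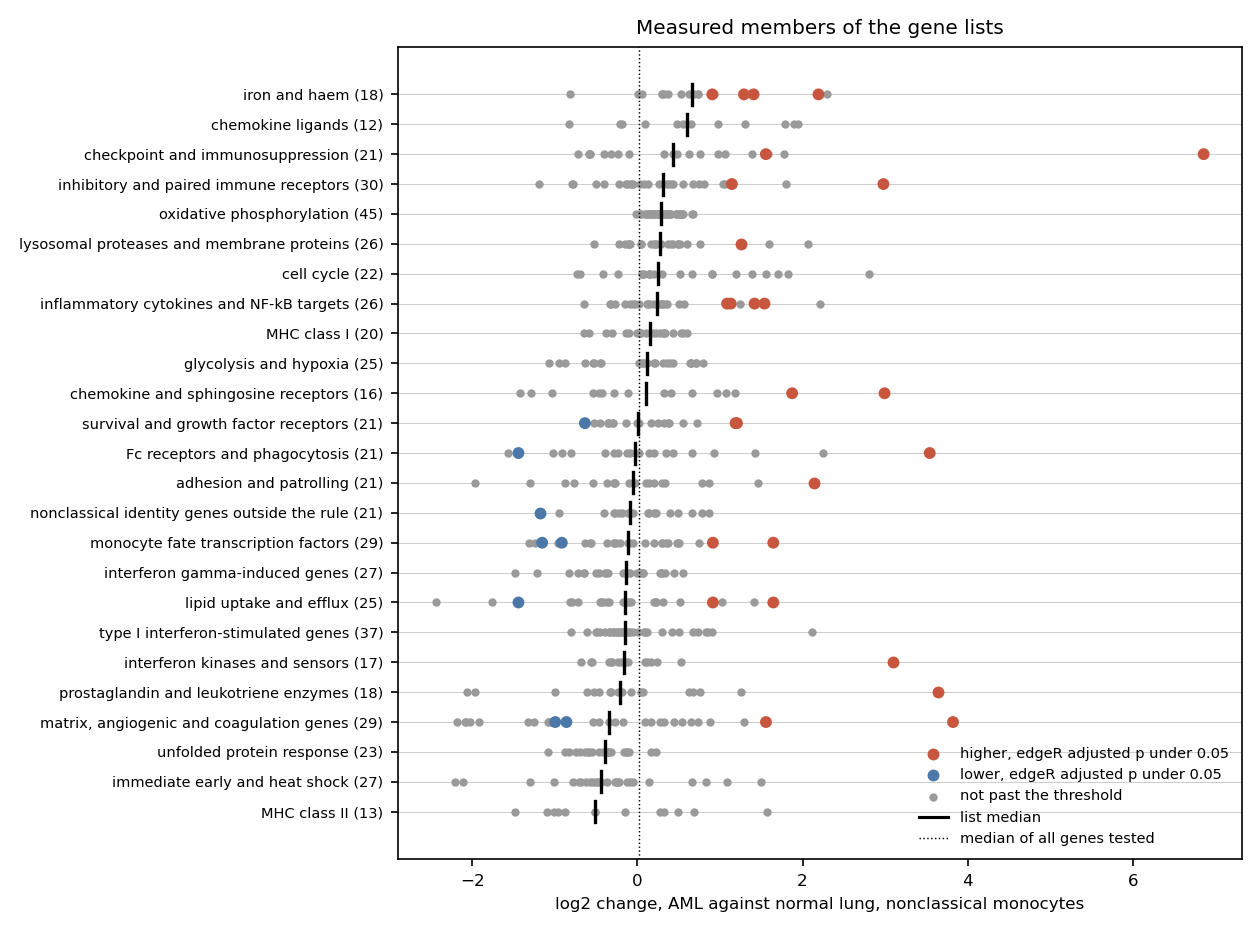
Log2 change between AML and normal lung (x axis) of every measured member of 25 gene lists, sorted by list median, with the number measured in brackets. Red and blue points passed the edgeR threshold, grey points did not, black bars are list medians and the dotted line is the median of all genes tested, 0.02; Il10 at 6.86 is the point farthest to the right.

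Since the weight of members at the edge of the rule differed between libraries, levels were also read by the number of the 9 genes detected. This split was chosen after seeing the data and uses plain CPM. It does not match cells by depth. Members with 3 or 4 of the genes had median depths of 14267, 7078 and 3164 UMIs in normal lung replicates 1, 2 and 3. In AML lung they had 11818.5, 1997 and 1180 UMIs. The same number of genes may thus mark different cells in different libraries. Among members with 7 to 9 of the 9 genes, Pecam1 stood at 318, 248 and 379 CPM in normal lung and 1305, 1115 and 1225 CPM in AML lung. Mef2c stood at 752, 599 and 637 against 315, 200.4 and 248 CPM there, Ikbke at 11, 9.02 and 9.53 against 161, 103 and 88.5 CPM, and Lyz2 at 4604, 5287 and 4471 against 2399, 1516 and 2502 CPM. The groups stayed apart for all 4 genes in these cells. In members with 3 or 4 of the genes, Pecam1 was at 110, 196 and 199.6 CPM in normal lung and 171, 477 and 832 CPM in AML lung, so that AML lung replicate 1, with 88 such cells and 681 CPM of Ly6c2, lay inside the normal range. Lyz2 and Fpr2 overlapped in the same cells, Lyz2 at 10560, 10040 and 7312 against 9301, 4094 and 3496 CPM and Fpr2 at 27.9, 12.9 and 18.2 against 23.5, 39.1 and 58.3 CPM, again through AML lung replicate 1. Il10, Ikbke, Mmp14, Tnip1, Txn1, Mef2c and Dusp6 stayed apart there. Requiring 6 of the 9 genes gave 252 called genes, 121 of them among the 148, and keeping only members with 0 UMIs of Ly6c2 and Ccr2 gave 97, of which 74 were shared.

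Within AML lung, members with an Il10 UMI were set beside the other members at 1000 UMIs per cell, as a description. They numbered 120, 131 and 97 cells in AML lung replicates 1, 2 and 3. Pecam1 was detected in 65.8%, 67.2% and 63.9% of them against 57.4%, 52.6% and 51.2% of the others, and Ikbke in 19.2%, 10.7% and 13.4% against 14.8%, 8.73% and 6.71%. For Mmp14 the shares were 5.0%, 3.82% and 1.03% against 6.59%, 4.99% and 1.70%, and the first 3 rest on 6, 5 and 1 cells. These differences were not tested.

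Classical monocytes were kept cells with Ly6c2, Ccr2 and any of F13a1, Vcan, Chil3 and Fn1 detected. They held fewer than 3 of the 9 genes and no UMIs of Spic or Siglech, and met the members' limits on the excluding and C1q genes. They numbered 162, 237 and 382 in normal lung and 59, 551 and 1157 in AML lung. The change in AML lung was next compared with that in these cells. This asks whether the response is shared by both monocyte classes. The difference of the changes passed the edgeR threshold for 29 of 11963 genes, 0.242%, with 17 above 0 and 12 below, and 4 of the 12 were haemoglobin genes. Fmnl2 differed most among those named: in classical monocytes it stood at 62.5, 35.4 and 56.3 CPM in normal lung and 8.46, 7.05 and 38.4 CPM in AML lung, while it rose in members, a difference of 3.36 (SE 0.51, edgeR adjusted p = 0.0371). Ikbke in classical monocytes stood at 29.2, 22.5 and 11.8 against 31.7, 32.3 and 32.4 CPM, a difference of 2.36 (SE 0.29, edgeR adjusted p = 0.0151). Apoe stood at 815, 664 and 607 against 479, 269 and 866 CPM in classical monocytes, a difference of -1.27 (SE 0.16, edgeR adjusted p = 0.0150), and Runx3, a transcription factor of lymphocytes and monocytes, at 120.1, 154 and 185 against 93.1, 174 and 177 CPM, a difference of -1.12 (SE 0.18, edgeR adjusted p = 0.0478).

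The count of 29 rested on few libraries. It was 4, 5 and 0 without normal lung replicates 1, 2 and 3, with 1481 genes at an unadjusted p under 0.05 in the last, and 38, 11 and 695 without AML lung replicates 1, 2 and 3. For Il10 the difference was 5.22 (SE 1.64, edgeR adjusted p = 0.186), with 0, 3 and 1 UMIs in the classical monocytes of normal lung and 1, 4 and 5 in those of AML lung, and for Pecam1 it was 1.07 (SE 0.47, edgeR adjusted p = 0.341). Neither passed, which does not show that the classes responded alike.

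**Figure D5:**
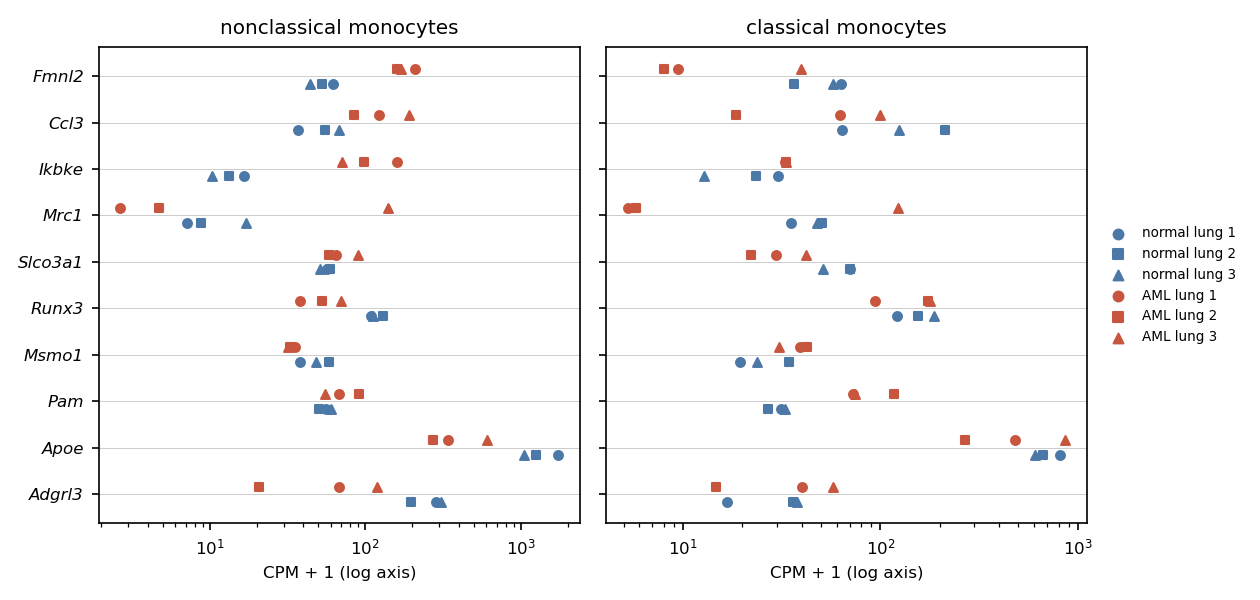
CPM plus 1 per library (x axes, logarithmic) in nonclassical (left) and classical monocytes (right) for the 10 genes named for a difference in change between the classes. In the left panel every AML library lies above the normal ones for Fmnl2 and Ikbke; in the right panel Fmnl2 overlaps between groups and lies lower in AML lung replicates 1 and 2, while Apoe and Runx3 separate by group in the left panel and overlap in the right.

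Members were last set against cells of the same AML libraries that met every other condition but held at least 1 Spic UMI, 819, 1098 and 409 cells in AML lung replicates 1, 2 and 3. Those cells had median depths of 11105, 6271 and 1536 UMIs, above the members' in each library, and in shallow cells a Spic molecule is more easily missed, so the members may hold cells that express Spic. Of 12161 genes tested 1707, 14.0%, differed, 896 higher in the Spic-positive and 811 higher in the Spic-negative cells by edgeR, and 527 and 827 differed without AML lung replicates 1 and 2. Hmox1 stood at 67.8, 75.6 and 67.3 CPM in members and 241, 597 and 197 CPM in Spic-positive cells (log2 difference 2.31, SE 0.17, edgeR adjusted p = 1.503e-07). Spic-positive cells were higher in all 3 libraries.

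Members held more of the genes that classical monocytes share. Ccr2 stood at 40.2, 68.9 and 92.9 CPM in members and 7.65, 17.5 and 74.7 CPM in Spic-positive cells (log2 difference -1.81, SE 0.19), F13a1, coagulation factor XIII A, at 30.3, 30.2 and 98.5 against 6.43, 7.44 and 78.4 CPM (-1.65, SE 0.22), and Fn1, fibronectin, at 46.7, 78.1 and 115 against 14.4, 27.2 and 86.9 CPM (-1.40, SE 0.13). In AML lung replicate 3 the classes differed least for these genes. Hdc and Thbs1 differed by -1.61 (SE 0.17) and -1.37 (SE 0.20), and Itga9, Ccl4, Basp1 and Hpgds by 1.76, 1.55, 1.497 and 1.39.

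Genes raised in AML members were also measured in Spic-positive cells. Il10 stood at 111, 41.6 and 26.4 CPM in members and 248, 129 and 77.2 CPM in Spic-positive cells (log2 difference 1.38, SE 0.08, edgeR adjusted p = 1.89e-08). Pecam1 stood at 1163, 948 and 900.3 CPM against 1516, 1450 and 1108 CPM (0.45, SE 0.05, edgeR adjusted p = 5.52e-06), and Ikbke at 153, 93.8 and 69.2 against 223, 136 and 91.9 CPM (0.52, SE 0.05, edgeR adjusted p = 3.63e-06). Mef2c stood at 315, 207 and 254 CPM in members and 236, 146 and 194 CPM in Spic-positive cells (-0.44, SE 0.05, edgeR adjusted p = 6.05e-06). This comparison and that with normal lung share the AML members, so the values are given side by side and not as separate evidence.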

How the data were processed

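Raw UMI counts were deposited as whole numbers, 1 matrix of 32285 features a library. Per the submitters' processing notes they come from Cell Ranger 7.0.0 and mm10, and per the labels' protocols from 10x 3' v3.1 libraries. Sources used here do not name the barcode filter. Barcodes with 500 or more UMIs, 200 or more genes and under 10% mitochondrial UMIs were kept, 71634 of 73095. Scrublet (scanpy 1.11.5) marked 0% of 3 libraries at its own threshold, so the others' median, 0.231, was used there, after seeing those calls. Counts were summed per library and class and tested with edgeR 4.0.16 (R 4.3.3; TMM, filterByExpr, quasi-likelihood F test, Benjamini-Hochberg adjustment over all genes at 0.05) and checked on simulated counts. SE is the log2 change over the square root of F. CPM of tested genes uses TMM-scaled sums; marker sums and splits use plain sums. DESeq2 1.42.0 was an alternative. Genes named are the 12 largest increases and decreases among called genes whose groups did not overlap and whose average log2 CPM reached 5 (5 in the other comparisons), and up to 4 members of each of 25 lists by p; other genes named were chosen after their values were seen. Unnamed models, ribosomal, mitochondrial, receptor segment, haemoglobin and sex-linked genes were left out. Members and lists were chosen with earlier results of these data known. Replicates differed beyond sampling noise in every pair (chi-square per degree of freedom 5.94 to 69.0). Positions are from GENCODE M21, promoters from RefSeq. The result of 1 gene is not reported here.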

Additional observations from a re-analysis of the deposited data

Results flagged for a closer look

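The difference in the AML effect between nonclassical and classical monocytes was itself tested, and 10 named genes passed the edgeR threshold. The log2 change was more positive in nonclassical than in classical monocytes for Fmnl2 (difference 3.36), the chemokine gene Ccl3 (2.64) and Ikbke (2.36). The same held for the mannose receptor gene Mrc1 (2.16) and the organic anion transporter gene Slco3a1 (1.44). In classical monocytes alone the changes were -1.495 for Fmnl2, -1.20 for Ccl3, 0.61 for Ikbke, 0.05 for Mrc1 and -1.065 for Slco3a1, none past the threshold. Slco3a1 changed by 0.33 in nonclassical monocytes, also not past it. It was smaller or more negative in nonclassical monocytes for the adhesion receptor gene Adgrl3 (-2.35), Apoe (-1.27), the peptide-amidating enzyme gene Pam (-1.21), the sterol synthesis gene Msmo1 (-1.13) and Runx3 (-1.12). Mrc1 was high in 1 library of both classes: it stood at 1.67, 3.69 and 139 CPM in nonclassical and at 4.23, 4.77 and 121 CPM in classical monocytes of AML lung replicates 1, 2 and 3, and without replicate 3 the difference was 1.61 and no longer passed, nor did it when AML lung replicate 2 or any normal library was left out. Pam rose in classical monocytes, from 30.4, 25.9 and 31.8 to 71.9, 117 and 73.1 CPM (log2 change 1.596, SE 0.22, edgeR adjusted p = 0.0123), and stood at 54.5, 49.1 and 59.1 against 66.3, 90.3 and 53.8 CPM in nonclassical monocytes. The other named genes were fragile too. Without normal lung replicates 1, 2 and 3, respectively 0, 1 and 0 of the 10 named genes still passed. Without AML lung replicate 2 it was 2 of the 10. Groups of 3 libraries are too small for a test of single outlying libraries.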

How the results depend on the processing

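The 148 genes called in nonclassical monocytes became 0 to 2089 when 1 library was left out, 763 with DESeq2, 393 without the low count filter, 702 with 2 or more markers (208 higher, 494 lower), 473 with equal numbers of cells (209 higher, 264 lower), 32 in cells of 2000 UMIs or more and 81 after thinning. With 6 or more markers, a choice made after seeing the data, the count was 252, and without Ly6c2 and Ccr2 UMIs, also chosen then, 97. The cause was not tested. Of the 148 genes 147 had the same direction in every one of the 20 fits that tested them. Those fits draw on the libraries that chose the genes, so kept directions are no separate evidence. In all 14 alternatives that kept all libraries 15 of the genes passed, among them Acp5, Dusp6, F10, Fpr2, Fth1, Ikbke, Il10, Il1b, Padi2, Pecam1, Slc7a11 and Xylt1. The 29 genes that differed between the classes became 0 to 695 with 1 library left out, 784 without the filter and 13 in cells of 2000 UMIs or more. The 1707 genes of the Spic comparison became 527 to 1738 with 1 library left out. The share difference stayed between 13.4 and 25.2 percentage points in every setting. The labels name no pairing. Same-numbered libraries had deviations correlated at 0.31, 0.03 and 0.31, and 5 of 6 correlated best with their own number. Normal lung replicate 1 with AML lung replicate 3 was at -0.28 and normal lung replicate 3 with AML lung replicate 1 at -0.32. Whether same-numbered libraries belong together cannot be told from these values, and the main fit had no replicate block. With the replicate block 151 genes were called, 92 of them among the 148. Depth limits AML lung replicate 3 most, whose members have a median of 1320 UMIs.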

Other observations

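Outside the lists, and chosen after their values were seen, several secreted and surface proteins were among the called genes of nonclassical monocytes. Saa3, an acute phase serum amyloid, had 2.15, 1.11 and 2.14 CPM in normal lung and 14.2, 33.5 and 37.2 CPM in AML lung (log2 change 3.98, SE 0.46, edgeR adjusted p = 0.0266). Cfb, complement factor B, stood at 4.14, 7.21 and 8.06 against 34.2, 50.5 and 22.8 CPM (2.47, SE 0.36), and Il21r, the interleukin 21 receptor, at 6.45, 7.07 and 12.5 against 55.3, 65.0 and 27.2 CPM (2.51, SE 0.39). Cd72, an inhibitory receptor best known from B cells, had 1.99, 2.22 and 1.48 against 10.3, 11.4 and 10.2 CPM (2.48, SE 0.23). In all 4 genes the AML libraries lay above the normal ones. This was seen before they were chosen and is no separate evidence, and the groups did not overlap for 25.5% of all genes tested.

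Prtn3, the primary granule protease proteinase 3, had 10, 8 and 11 UMIs in normal and 282, 389 and 118 UMIs in AML members, 1.65, 1.11 and 1.81 against 17.3, 14.6 and 10.7 CPM (log2 change 3.22, SE 0.29, edgeR adjusted p = 0.0165). The 6 markers of immature myeloid cells, Prtn3 among them, summed to 21.2, 15.99 and 16.2 CPM in normal and 24.8, 19.2 and 22.3 CPM in AML members. Markers within that sum moved in opposite ways. Elane, not tested, had 0 UMIs in each normal library and 74, 33 and 6 UMIs in the AML libraries. Kit stood at 15.3, 8.34 and 10.3 CPM in normal and 1.255, 2.04 and 6.77 CPM in AML members. Cd34 stood at 3.71, 5.98 and 4.10 against 0.956, 1.11 and 3.93 CPM. Kit and Cd34 were not called, and Mpo and Ctsg had at most 18 UMIs in any library. Among the genes that fell, Cxcl12, the chemokine that retains leukocytes in marrow, went from 30, 80 and 52 UMIs to 21, 16 and 14 UMIs (-2.99, SE 0.44). These low counts come out of 5924894, 7174028 and 6079907 UMIs in normal and 16702850, 26962856 and 10895488 UMIs in AML members. The endothelial marker sums given above were also lower in AML lung replicates 1 and 2, and the part of other cells was not tested. Cyp51, an enzyme of cholesterol synthesis, went from 43.8, 51.2 and 58.6 to 26.2, 24.2 and 26 CPM (-1.01, SE 0.13). The groups of libraries were separate for the called genes Prtn3, Cxcl12 and Cyp51, while they overlapped for Cd34.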
